A study of Drosophila melanogaster with 6 samples.

Results

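Polycomblike (Pcl) is an accessory subunit of Polycomb repressive complex 2, the enzyme complex that methylates lysine 27 of histone H3 and so keeps developmental regulator genes silent where they are not needed. In Drosophila melanogaster the complex is brought to chromatin at short DNA elements, the Polycomb response elements, and its histone mark spreads from them over long tracts. Pcl is known to bind the core complex and to be needed for high levels of the mark at target genes. The binding landscape described here was mapped by chromatin immunoprecipitation and sequencing (ChIP-seq) in embryos 12 to 24 h old that expressed Pcl with a BioTAP tag, an affinity tag that binds IgG and streptavidin beads in turn. The group held 2 immunoprecipitated libraries, replicates A and B, and 1 input library without a peak list. The labels do not give the strain, the promoter or insertion of the tagged gene, whether untagged Pcl was still present, or whether the replicates came from separate collections. Whole embryos were used, so strong binding in few cells and weak binding in many cells cannot be told apart.

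List A held 5173 peaks and list B 3917, together 9090 of the 12061 peaks deposited for the series. Peaks of the lists were merged where they overlapped by 1 bp or more, and the merged regions that held a peak from both lists were kept as Pcl regions. Of 5467 merged regions 1975 were kept, or 36.1% (Wilson 95% interval 34.9 to 37.4%), while 2969 held A peaks alone and 523 held B peaks alone. Kept regions up to 5 kb apart were then joined into 497 Pcl domains. The regions contained 2204 A peaks, which is 42.6% of list A (41.3 to 44.0%), and 3394 B peaks, which is 86.6% of list B (85.5 to 87.7%). All 161 A peaks and all 231 B peaks with a fold enrichment above 10 were in a region. With 1 group of 2 libraries no test across samples could be made, and every value below is a description of these lists.

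The lists differed in the number of fragments behind their peaks. The fold enrichment and p-value of each peak gave back a whole number of sequenced fragments at the peak's summit and the background level set against it, for 100% of the peaks of both lists. The lowest background was 6.54 fragments in A and 2.70 in B, a ratio of 2.42. That ratio also depends on the fragment length used in peak calling, and read totals were not analysed here. The fewest fragments at a summit were 16 in A and 9 in B, and the median was 26 and 16. In list A, the peaks left out of the regions had a median fold of 2.89 and a median of 24 fragments, against 3.77 and 33 for the peaks kept. In B the peaks left out had a median fold of 3.58, against 4.13 for the peaks kept. Counting error alone is covered by the intervals given here.

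Pcl regions lay close together. Of the 1963 gaps between neighbouring regions on a sequence, 1478, or 75.3%, were at most 5 kb and were joined, and their median was 424 bp. Of these, 769 were at most 500 bp, the upper size limit of the library fragments including adaptors, and 274 were at most 100 bp. Beyond the joining distance there were 105 gaps of 5 to 10 kb and 191 over 100 kb. The gap just inside the limit was 4942 bases, on 2L between 12603744 and 12608687, where the regions on either side had folds of 3.18 and 4.24 in A. The gap just outside was 5103 bases, on X between 13903596 and 13908700, with folds of 3.99 and 3.85 in A. Gaps ran on without a break across the limit, so the number of domains depends on it. Coordinates are 1-based on the build dm3, named in the submitters' processing notes and equal to Release 5 of the genome.

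**Figure D1:**
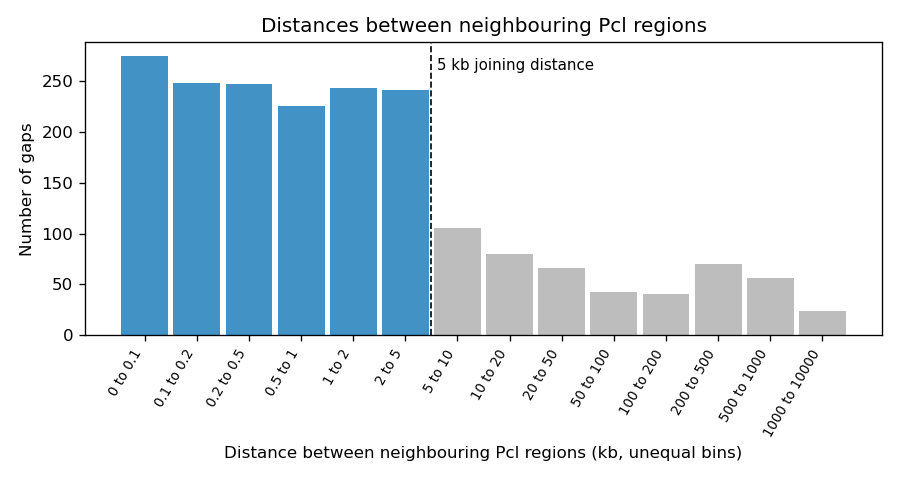
Number of gaps (vertical axis) between neighbouring Pcl regions by their distance in kb, in bins of unequal width (horizontal axis). Blue bars, 1478 gaps in all, are at most 5 kb and were joined. Grey bars were not, and 105 of them lie between 5 and 10 kb.

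Pcl domains ran from single sites of 163 bp to tracts of over 200 kb. The median length was 2225 bp, with quartiles of 547 and 9546 bp, and the longest was 222496 bp. A domain held a median of 4 peaks over both lists (2 from A and 2 from B) and a mean of 11.3, with a maximum of 260. Exactly 1 A peak and 1 B peak made up 203 domains, or 40.8% (36.6 to 45.2%). Domains of a single region numbered 244, or 49.1% (44.7 to 53.5%). They held 12.4% of the regions and 7.20% of the length covered by regions. At the other end, 54 domains of 10 or more regions, 10.9% of all, held 48.0% of the regions and 56.6% of their length. The longest 49 domains, all of at least 22488 bp, held 55.2% of the region length. Together the domains covered 4158 kb and the regions within them 2730 kb, or 65.7% of the domain length.

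**Figure D2:**
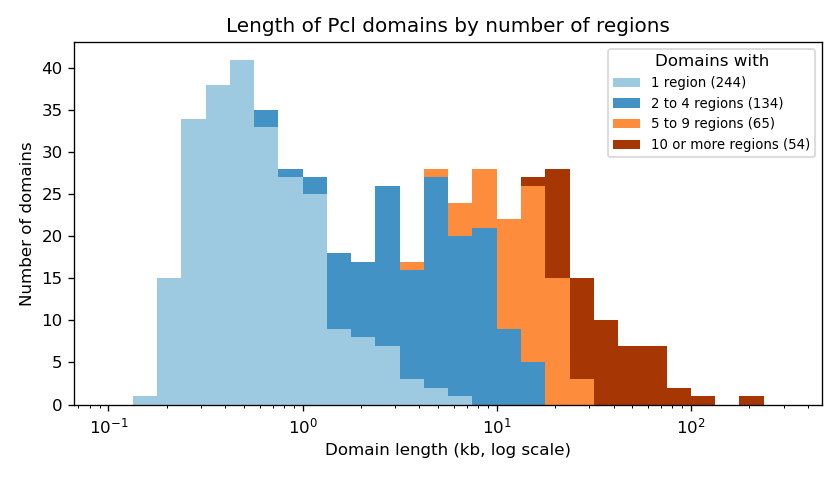
Number of Pcl domains (vertical axis) by length in kb on a log scale (horizontal axis), with bars stacked by the number of regions in a domain. The 244 single-region domains have a median length of 529.5 bp, and the 54 domains of 10 or more regions have a median length of 32.6 kb.

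The classes of domains differed in the fold of their strongest peak and hardly in the median fold of all their peaks. The median over domains of the highest fold was 3.67 in A and 4.14 in B for single-region domains, 6.33 and 7.64 for domains of 2 to 4 regions, 9.11 and 10.8 for 5 to 9 regions, and 12.6 and 18.0 for 10 or more regions. A domain with more peaks has more chances of a high one. The median fold of all peaks in the class moved little, between 3.62 and 3.87 in A and between 4.06 and 4.20 in B. Over all domains, length and the median fold of the peaks in a domain had a Spearman correlation of 0.26 in A and 0.17 in B. The lists hold only peaks that passed peak calling, so weaker sites do not enter these medians. Peak width did not follow the same course in both lists. In A the median width was 479 bp in single-region domains and 727 bp in those of 10 or more regions, and in B it was 298 and 299 bp. Summit fragments of all peaks had a median of 40 in A and 19 in B in single-region domains. In domains of 10 or more regions the medians were 31 and 16. The background level at the summits was highest for the single-region domains, with a median of 9.73 fragments in A and 3.62 in B, against 7.24 and 2.81 in domains of 10 or more regions. The part of this difference in the lower folds of single-region domains was not tested.

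The longest domain lay on 3R from 12588234 to 12810729, held 52 regions and was covered by them over 87.8% of its length. List A had 68 peaks there and list B 192, and the highest fold was 17.6 in A and 32.4 in B. Which domain was longest depended on the list. Peaks of B alone gave this domain again, at 222476 bp, while peaks of A alone gave one on 3R from 2540607 to 2879176, of 338570 bp with 250 regions. The third longest, of 96.3 kb with 51 regions, began on 3R at 12485812 and ended at 12582096, only 6137 bases before the longest. These neighbours lie in the part of 3R where textbook maps of Release 5 place the Bithorax complex, the homeotic genes that set the identity of the posterior thorax and the abdomen. No annotation of that build was used to check this placing. The second longest domain, of 121.6 kb with 60 regions, lay on 3R from 2755485 to 2877067, with highest folds of 16.8 in A and 21.7 in B. The fourth, of 75.6 kb, ran from 2606127 to 2681713 and had highest folds of 18.7 and 28.8. The tenth, of 59.5 kb from 2690642 to 2750148, filled most of the space between them and had highest folds of 17.8 and 26.7. In the same textbook maps this stretch is that of the Antennapedia complex, the homeotic genes of the head and anterior thorax, again without a check against an annotation.

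The 5 others among the 10 longest were spread over 4 arms. The fifth was on 3R from 17235356 to 17307124, with 29 regions that covered 83.6% of it and highest folds of 16.4 in A and 21.5 in B. The sixth, on X from 5437431 to 5502783, held the highest fold of list A, 27.5, matched by 27.4 in B. The seventh, on 3L from 12565455 to 12630021, had highest folds of 9.06 and 15.7. The eighth, on 2R from 8867210 to 8930916, had only 17 regions, yet these covered 87.1% of its 63.7 kb, with highest folds of 15.7 and 15.6. The ninth, on X from 17651402 to 17711918, had 25 regions and highest folds of 17.0 and 24.4. Over all 497 domains, length and highest fold had a Spearman correlation of 0.80 in each list, given as a description, since a domain with more peaks is longer and has more chances of a high one.

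On 3R from 2.4 to 2.9 Mb there were 7 domains with 127 regions and 201 kb of region length, which is 7.35% of that length in the genome. From 12.4 to 12.9 Mb there were 4 domains with 105 regions and 252 kb, or 9.25%. These windows, chosen after their values were seen, held 11 of the 497 domains and 43.4% of the region length on 3R.

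**Figure D3:**
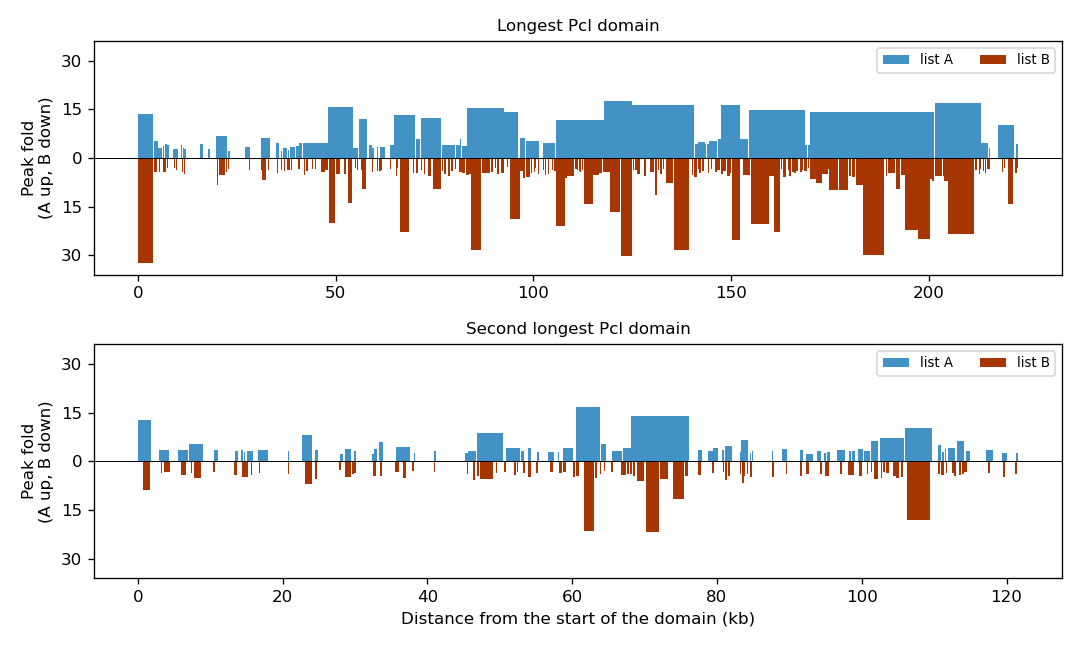
Peaks of list A (blue, upward) and list B (brown, downward) in the 2 longest Pcl domains, both on 3R, by distance from the start of the domain in kb (horizontal axis). The height is the fold of the peak at its summit (vertical axis), drawn over the whole width of the peak. In the longest domain 15 A peaks and 20 B peaks rise above a fold of 10, among many weaker ones.

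By number of peaks, though not by the length they covered in A, most peaks of the longest domain were weak. In the longest domain the median fold over its peaks was 4.24 in A and 4.33 in B, while 15 A peaks and 20 B peaks were above 10. All 20 of these B summits lay inside an A peak with a fold above 10, and 13 of them were within 500 bp of its summit or that of another such A peak. Such A peaks were broad, up to 31462 bp, and took up much of the domain, so many positions would lie inside one. Neighbouring strong summits of that domain were a median of 12476 bp apart in A and 9151 bp in B, with a longest distance of 47751 and 47694 bp. The breadth of the peaks differed between the lists. The widest A peak was 31462 bp and lay from 12758127 to 12789588, where B had 19 separate peaks, and the widest B peak in that domain was 6502 bp. A peaks covered 86.1% of the domain and B peaks 63.9%. Across all domains the same difference was seen, since 578 regions held more B than A peaks and 70 more A than B peaks, while 1273 held exactly 1 of each.

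Over the genome, peaks with a fold above 10 lay in 101 domains in list A and in 134 in list B, and 92 domains had such a peak in both. In A 32 of these domains had 2 or more such peaks, and in B 50 did. Neighbouring strong summits of a domain were a median of 12507 bp apart in A (60 pairs) and 10564 bp in B (97 pairs). Of the 54 domains of 10 or more regions, 43 had such a peak in A and 49 in B. Of the 244 single-region domains, 6 had one in A and 8 in B. Such peaks were 7.30% of the A peaks and 6.81% of the B peaks in regions. The domains of 10 or more regions held 1097 A peaks and 1855 B peaks, and the single-region domains 254 and 310. A domain with more peaks has more chances of a strong one, and a difference between the classes beyond that was not tested. Strong peaks were wide, with a median of 3737 bp in A and 1742 bp in B.

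The replicates ranked the domains alike by highest fold, and less closely so the single regions. Only sites called in both lists enter this comparison, with 42.6% of the A peaks and 86.6% of the B peaks. Over the 497 domains the highest folds in A and B had a Spearman correlation of 0.88, given as a description, since both values rise with the number of peaks. Over the 244 single-region domains, where each list mostly had 1 peak, it was 0.61. Over all regions, taken 1 by 1, it was 0.69. Among the 50 domains with the highest fold in each list, 34 were common to both. The strongest summits of the lists were a median of 46 bp apart and lay within 500 bp of each other in 84.3% of the domains (80.8 to 87.2%). In single-region domains 97.1% did, while in domains of 10 or more regions 59.3% did (46.0 to 71.3%). The median single-region domain was only 529.5 bp long, so summits there had little room to lie farther apart. Single-region domains also enter the 84.3%. Within 100 bp of each other lay the summits of 69.3% of single-region domains and 57.4% of domains of 10 or more regions. In the longest domain the strongest summits of the lists, at 12712408 in A and 12589935 in B, were 122473 bp apart. The A peak at the place of the strongest B summit had a fold of 13.6.

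Folds were higher in B in 368 of the 497 domains, or 74.0% (70.0 to 77.7%), with a median log2 ratio of B to A of 0.25. The share was 68.4% in single-region domains and 88.9% (77.8 to 94.8%) in those of 10 or more regions, where the median log2 ratio was 0.48. At the strongest summits of single-region domains A had a median of 1.97 times as many fragments as B, and in domains of 10 or more regions 1.55 times. In those long domains the median strongest summit held 221 fragments in A and 149.5 in B, and the highest of all were 311 and 264. The lowest background of A was 2.42 times that of B, but strongest summits can have a higher background than the lowest. In the long domains the strongest summits of A and B lay within 500 bp of each other in only 59.3%. The part of the background in the higher folds of B was not tested. Only 25 domains, or 5.03%, differed by more than 2-fold in highest fold. These 25 included domains with the higher fold in A, such as that on 3R from 2910383 to 2912949, with 5.79 in A and 2.39 in B. A domain on X from 4475496 to 4514200 with 17 regions was also higher in A, by less than 2-fold, at 22.6 against 13.4 in B.

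**Figure D4:**
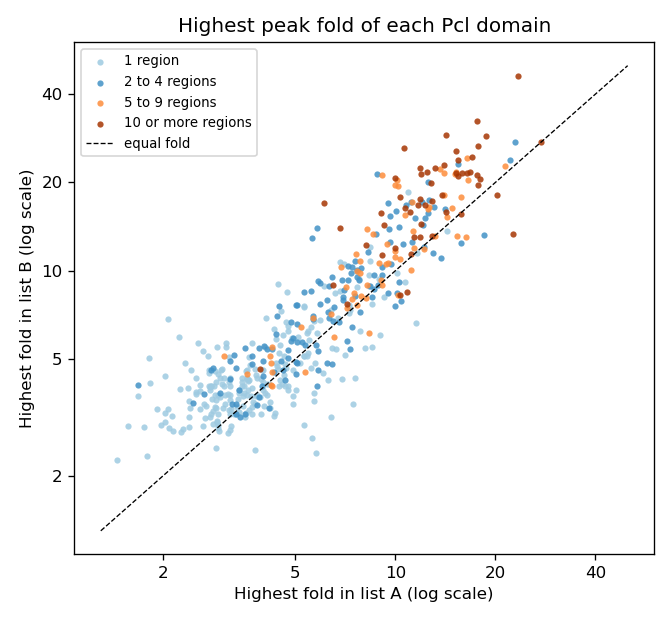
Highest peak fold of each of the 497 Pcl domains in list A (horizontal axis) and list B (vertical axis), both on log scales, coloured by the number of regions. The dashed line marks equal folds. Most points lie above it (368 of 497), most of all among the domains of 10 or more regions (48 of 54).

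The strongest domain by the mean rank of its highest fold in both lists was on X from 8686477 to 8713912. Its folds were 23.3 in A and 46.0 in B, the highest of list B, with summits 9 bp apart at 8699993 and 8699984. At those summits A had 279 fragments and B 180. The domain was 27.4 kb long, but regions covered only 45.1% of it, and the median fold of its 14 A peaks was 3.91. The second was the sixth longest domain, on X, with summits 13 bp apart. The third, on 2R from 5860564 to 5876422, held only 4 regions, which covered 92.9% of its 15.9 kb, and had folds of 22.8 and 27.4. The fourth and the fifth were the domains on 3R that began at 2606127 and 12588234, placed at homeotic complexes by textbook maps only.

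Domains of a single region could also be strong. The single-region domain with the best mean rank spanned 5906658 to 5908968 on X. Its folds were 14.3 in A and 13.7 in B, its summits were 22 bp apart, and it lay 9980 bases after one domain and 841 kb before the next. The next spanned 12085481 to 12086608 on 2L and reached 10.9 in A and 18.5 in B, again with summits close together, 9 bp apart, and its nearest domain was 74693 bases away. A site on X between 20453744 and 20454971 was the third, at 11.7 and 11.5, with 20954 bases to the nearest domain. The fourth spanned 2017283 to 2020536 on X and reached 10.7 and 9.17, but its summits were 1078 bp apart and the next domain was 8211 bases away. The fifth, at 18747159 to 18748312 on 2R, reached 10.1 and 9.83, and the next domain was 5735 bases away. Of the 5 only the first 3 exceeded a fold of 10 in both lists.

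The main arms carried 485 of the domains, 4.10 per Mb, which covered 3.48% of the 118 Mb spanned. The length of a sequence was read from its last peak in any of the 4 lists of the series. On 3R lay 107 domains, or 21.5% (18.1 to 25.4%), against 22.0% of the span of all sequences, but they held 33.0% of the regions and 38.2% of the region length. Among the main arms alone, 3R held 22.1% of the domains and spanned 27.9 of the 118 Mb. There were 6.09 regions per domain on 3R and 2.99 to 3.80 on X, 2L, 2R and 3L. Domains covered 5.55% of 3R and 2.35% to 3.06% of those arms. The windows on 3R from 2.4 to 2.9 Mb and from 12.4 to 12.9 Mb held 11 domains. Without these, 3R had 4.38 regions per domain, 3.41% of its span in domains and 25.9% of the region length. The windows thus made the difference between 38.2% and 25.9% of the region length. Without them 3R still held a larger part of that length than its 22.0% of the span, both taken over all sequences.

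The X chromosome had the most domains, 110, or 5.04 per Mb, and the shortest among the long arms, with a median of 1239 bp against 4694 bp on 3R. Of these 63.6% were single regions, and on the long autosomal arms 42.7% to 47.8% were. The background at X peaks was low. In A 54.8% of the X peaks in regions had the lowest background of the list, against 21.6% on 2L, 2R, 3L and 3R, and in B the shares were 65.9% and 28.9%. The part of this low background in the number of X domains was not tested. The median highest fold of X domains was 5.31 in A and 5.33 in B. On the long autosomal arms it was 4.31 to 6.23 in A and 5.15 to 6.81 in B. Domains of the arms were not matched for background or number of regions.

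The fourth chromosome, a short and largely heterochromatic chromosome, was the densest of the main arms. Its 15 domains with 66 regions came to 11.3 per Mb and covered 9.74% of 1.32 Mb. Only 3 of them were single regions, and the median length was 6110 bp. The strongest lay from 1000868 to 1022735, with 13 regions and folds of 11.9 in A and 17.6 in B. The longest, from 422156 to 452530, had 10 regions and folds of 10.3 and 8.28. The domain from 722426 to 728674 was a single region with 1 peak in A and 9 in B, and folds of 8.37 and 12.0.

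**Figure D5:**
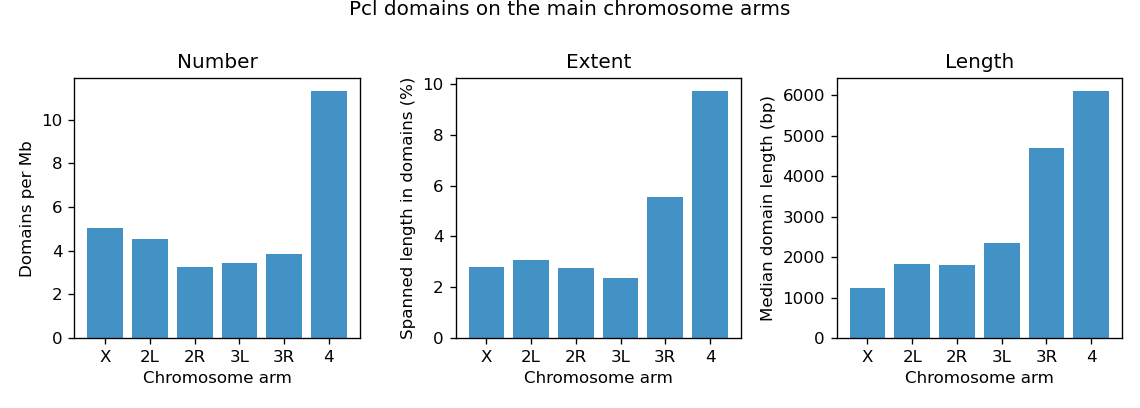
Pcl domains on the main chromosome arms (horizontal axes): domains per Mb, share of the spanned length in domains in percent, and median domain length in bp (vertical axes). The fourth chromosome is highest in all 3 panels, with 11.3 per Mb, 9.74% and 6110 bp, and 3R comes next in share and length.

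Domains were unevenly placed along the arms. When each long arm was cut into 10 equal parts, the number of domains in a part ran from 1 on X (the sixth part) to 28 on X (the fourth part). The region length in a part reached 326 kb on 3R in the fifth part, the part that holds the longest domain. The median distance between neighbouring domains was 45.0 kb, with quartiles of 11.3 and 308 kb, and 24 distances were over 1 Mb. The longest stretch between domains was 3014 kb on 3L, from 15165553 to 18179961.

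The other sequences held 12 domains with 23 regions. The strongest spanned 205571 to 209968 on 3LHet with 2 regions and reached a fold of 10.3 in A and 14.1 in B over backgrounds of 17.8 and 5.36 fragments. The longer of the 2 domains on XHet ran from 183900 to 196019 with folds of 5.67 and 6.90, and the background at XHet peaks had a median of 55.0 in A and 19.3 in B. The mitochondrial sequence was a single domain, with 6 regions that covered 81.0% of its span up to the last peak. Its folds were at most 3.58 in A and 4.44 in B, with a median background of 25.7 and 9.78. Whether this domain, counted with the others, marks Pcl binding was not tested. All 4 domains on 3RHet were single regions with folds of 2.52 to 4.76 in A. The second domain on XHet had 236 fragments at its A summit and a fold of 1.82.

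Most regions called in only 1 list lay in or beside the domains. Of the 2969 regions with A peaks alone, 1102 lay between the regions of a domain, and 79.4% (77.9 to 80.8%) lay in a domain or within 5 kb of one. Of the 523 with B peaks alone, 172 lay between the regions of a domain and 71.7% (67.7 to 75.4%) were in or within 5 kb of one. More than 50 kb from any domain lay 7.88% of the former and 11.7% of the latter. Domains covered 3.48% of the span of the main arms. The share of the genome within 5 kb of a domain was not computed, so an excess over even placing was not tested.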

How the data were processed

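The authors deposited 1 peak list in the narrowPeak layout for each immunoprecipitated library, with replicates not pooled. Per the submitters' processing notes, Trimmomatic 0.36, Bowtie 1.2.2, deepTools 3.0.2 and MACS2 2.1.1 were used with the build dm3. The control and call settings are not given in the sources used here. In the deposited lists the fold is a linear ratio, beside −log10 p and −log10 q. The deposited score repeats −log10 q, multiplied by 10 and cut to a whole number, and was not used. The smallest −log10 q was 1.31 in A and 1.33 in B. Per the labels' protocols, chromatin was fixed with 3% formaldehyde and library DNA was size selected at 250 to 500 bp. Folds of separate lists rest on separate backgrounds.

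Domains follow the definition given above, with distances in bases between regions. Summit fragments and background were solved for together, taking the fold as (count + 1)/(background + 1) and p as a Poisson upper tail, with a tolerance of 0.001 on −log10 p. These steps were tested on simulated data. Members, domains to be named (the 10 longest, the 5 strongest and the 5 strongest single regions) and alternatives were chosen with earlier results of these data known. Classes, strong peaks, windows and other domains named were chosen after their values were seen. The only gene table at hand is on Release 6 coordinates, so it was not used and no genes were assigned to domains. The tools were pandas 2.3.3, scipy 1.17.1, numpy 2.4.6 and matplotlib 3.10.9 under Python 3.11.15.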

Additional observations from a re-analysis of the deposited data

How the results depend on the processing

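Of 59 alternatives over the 6 main values, 32 changed the value by less than the spread between the lists or, for counts, by less than 1.5 times. These 32 include, for each of the 6 values, counting identical intervals once, which could change nothing because there were none. The spread was taken from each list used alone, and these settings are also among the 59. Keeping peaks with q at or below 1e-05 gave 1068 regions, a median domain length of 2596 bp, 54.9% single-region domains, 45.5% of region length in the longest 10% of domains and 24.7% of domains on 3R. Joining up to 1 kb gave 981 domains, a median of 1124 bp, 61.3% single regions and 28.3% on 3R. Joining up to 10 kb gave 2952 bp and 21.2% on 3R, and up to 20 kb 312 domains, 4492 bp, 42.3% single regions and 22.8% on 3R. The longest domain was 113.0 kb when joining up to 1 kb, 324.9 kb at 10 kb and 338.6 kb, elsewhere on 3R, from list A alone. At 10 kb the longest and the third longest domain of the main setting joined. The share on 3R was 21.8% when A and B peaks had to share 50% of the shorter, 22.1% on the main arms only and, in an alternative chosen after seeing the data, 19.8% without the domains in the windows on 3R. Leaving out each list, so that the other alone defines regions, gave 3917 to 5173 regions, 620 to 765 domains, medians of 488 to 700 bp, 50.8% to 54.8% single regions, 61.5% to 70.9% of length in the longest 10% and 21.8% to 21.9% on 3R. The cause was not tested, except that fewer or unfiltered peaks and other joining distances change these values by construction. No paired analysis was possible because no groups were compared. No list repeated an interval. The lowest background was 2.42 times as high in A as in B, and its part in the sites missing from B was not tested.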
